A study of Homo sapiens with 7 samples.

Results

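The genes described here make the proteins that copy DNA in S phase and separate the copies in mitosis: 46 genes, found in the HepG2 expression table as the rows that carry one of the listed gene symbols, out of 22118 rows with a symbol on chromosomes 1 to 22, X and Y. HepG2 is an established human liver cancer cell line that divides in culture. The data were 7 samples of these cells, for which the labels give no treatment, with 1 library per assay: RNA-Seq, a nucleosome map from native MNase-Seq, and ChIP-Seq of 3 histone marks of active promoters (H3K4me3, H3K9ac and H3K27ac) and of the repressive marks H3K27me3 and H3K9me3. The RNA-Seq values are FPKM, a level per transcript length and library size, in 2 columns that are treated as runs of the same sample. No assay was repeated and the samples form no groups, so the values are described without tests, shares over genes carry exact 95% binomial intervals that cover counting error only, and the spread given for a level is that between the runs.

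Replication starts from origins that are licensed in G1 phase by the origin recognition complex, CDC6, CDT1 and the MCM helicase, and proceeds through DNA polymerases, their clamp and clamp loader, and a supply of deoxynucleotides. Cyclins, cyclin-dependent kinases and CDC25 phosphatases time the steps, and the Aurora and Polo-like kinases, the spindle checkpoint, the kinesins and topoisomerase II act in mitosis. The genes are transcribed in waves. As textbook background, E2F factors activate many genes of the G1/S wave, and the DREAM and MYB-MuvB complexes act through CHR elements, often beside CCAAT boxes bound by NF-Y, at many genes of the G2/M wave. By function, 24 of the 46 genes were listed as G1/S genes and 22 as G2/M genes. A culture that is not synchronised gives an average over all phases, so that more cells in a phase and more RNA per cell cannot be told apart.

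The promoter sequences of these waves are shown because the letters known for each wave can be read in them directly. RefSeq promoters on GRCh38.p14 were listed for 38 of the 46 genes, and AURKA, MCM4, FOXM1, CCNE2, TPX2, MCM5, TTK and BIRC5 had no entry. Of the genes with a single listed promoter, 3 per wave with the most matches before the start are printed from 250 bases before the start up to the start, 5′ to 3′ on the strand of the gene. MKI67 had as many matches there as CDC20, 4, and the tie was settled by the order of the symbols. Capitals mark the E2F, CHR and CCAAT letters on either strand; at MCM6 each capital run of 12 bases holds 2 overlapping E2F matches, 1 on each strand. The G1/S promoters are those of MCM6 (chr2:135876444-135876693, minus strand), a helicase subunit, of the transcription factor gene E2F1 (chr20:33686386-33686635, minus strand) and of MCM3 (chr6:52284743-52284992, minus strand), another helicase subunit.
MCM6: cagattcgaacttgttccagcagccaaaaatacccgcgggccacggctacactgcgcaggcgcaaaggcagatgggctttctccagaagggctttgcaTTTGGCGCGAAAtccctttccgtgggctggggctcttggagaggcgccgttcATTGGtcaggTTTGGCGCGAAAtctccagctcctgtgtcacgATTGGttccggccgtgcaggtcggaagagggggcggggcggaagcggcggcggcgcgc
E2F1: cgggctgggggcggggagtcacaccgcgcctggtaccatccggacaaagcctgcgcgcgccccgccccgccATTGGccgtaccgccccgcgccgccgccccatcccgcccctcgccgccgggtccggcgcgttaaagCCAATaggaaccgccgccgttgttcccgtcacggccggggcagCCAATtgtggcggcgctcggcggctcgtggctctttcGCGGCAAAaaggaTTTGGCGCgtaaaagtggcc
MCM3: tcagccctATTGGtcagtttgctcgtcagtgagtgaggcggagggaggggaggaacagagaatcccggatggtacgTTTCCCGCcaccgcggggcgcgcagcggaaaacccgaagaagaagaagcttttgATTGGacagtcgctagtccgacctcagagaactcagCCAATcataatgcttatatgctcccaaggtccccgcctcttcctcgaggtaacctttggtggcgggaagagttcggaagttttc

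The G2/M promoters are those of TOP2A (chr17:40417897-40418146, minus strand), which encodes topoisomerase II alpha, of CCNB2 (chr15:59104896-59105145, plus strand), a mitotic cyclin, and of CDC20 (chr1:43358731-43358980, plus strand), an activator of the anaphase-promoting complex.
TOP2A: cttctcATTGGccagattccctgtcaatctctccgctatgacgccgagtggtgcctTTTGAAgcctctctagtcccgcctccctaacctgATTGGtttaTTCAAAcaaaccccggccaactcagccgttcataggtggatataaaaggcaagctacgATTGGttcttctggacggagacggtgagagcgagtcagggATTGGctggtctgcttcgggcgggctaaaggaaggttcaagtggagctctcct
CCNB2: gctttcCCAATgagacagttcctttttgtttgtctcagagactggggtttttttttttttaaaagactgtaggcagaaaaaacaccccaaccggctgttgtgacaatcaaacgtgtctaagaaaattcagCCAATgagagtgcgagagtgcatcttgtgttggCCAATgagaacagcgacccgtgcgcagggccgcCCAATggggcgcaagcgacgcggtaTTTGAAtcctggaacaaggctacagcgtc
CDC20: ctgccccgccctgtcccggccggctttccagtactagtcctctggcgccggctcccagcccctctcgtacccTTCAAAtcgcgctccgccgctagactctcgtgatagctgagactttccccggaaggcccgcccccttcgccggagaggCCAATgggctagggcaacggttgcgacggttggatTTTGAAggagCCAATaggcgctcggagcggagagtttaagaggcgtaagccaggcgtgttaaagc

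Over whole promoters, which also include 50 bases after the start, the E2F letters TTTCCCGC, TTTCGCGC, TTTGCCGC or TTTGGCGC were present at 14 of 21 G1/S genes (66.7%) and at 1 of 17 G2/M genes, CDK1. They were present at 3.99% of the 27305 genes of the promoter table and at 6.73% of the 8308 of these that had an FPKM of at least 1. The G1/S genes with the letters included MCM2, MCM3, MCM6 and MCM7, CDC6 and CDT1, which load the helicase, the clamp gene PCNA, the primase partner POLA2, TYMS, CDC25A, E2F1 and E2F2. The CHR letters TTTGAA showed the opposite distribution, with 11 of 17 G2/M genes (64.7%) and 1 of 21 G1/S genes, RRM1, against 18.2% of all genes in the table and 13.7% of those with an FPKM of at least 1. They were present at TOP2A, CCNB2, CDK1, CDC20, CDC25C, PLK1, BUB1B, MAD2L1, KIF11, CENPF and MKI67. In BUB1B, CCNB2, KIF11, MKI67 and PLK1 a match began between 23 and 29 bases before the start. Many of these genes are textbook targets of these factors, so the shares are a description and not independent evidence.

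CCAAT was present at 15 of 17 G2/M genes (88.2%) and 12 of 21 G1/S genes (57.1%), against 39.7% of all genes in the table and 43.9% of those with an FPKM of at least 1. The GC box letters GGGCGG gave 76.5% of G2/M and 66.7% of G1/S genes, against 48.3% of all genes in the table and 76.6% of the genes with an FPKM of at least 1, so the genes of neither wave had them more often than that background. All letters were searched on both strands, matches of different motifs overlapped 5 times, and a match is not a measured binding site. The same letters in pathway genes outside the 46 were divided in a like way: the E2F letters were in 10 of 26 other replication genes (38.5%) and 2 of 25 other mitosis genes (8%), and the CHR letters in 2 of 26 (7.69%) and 16 of 25 (64.0%).

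**Figure D1:**
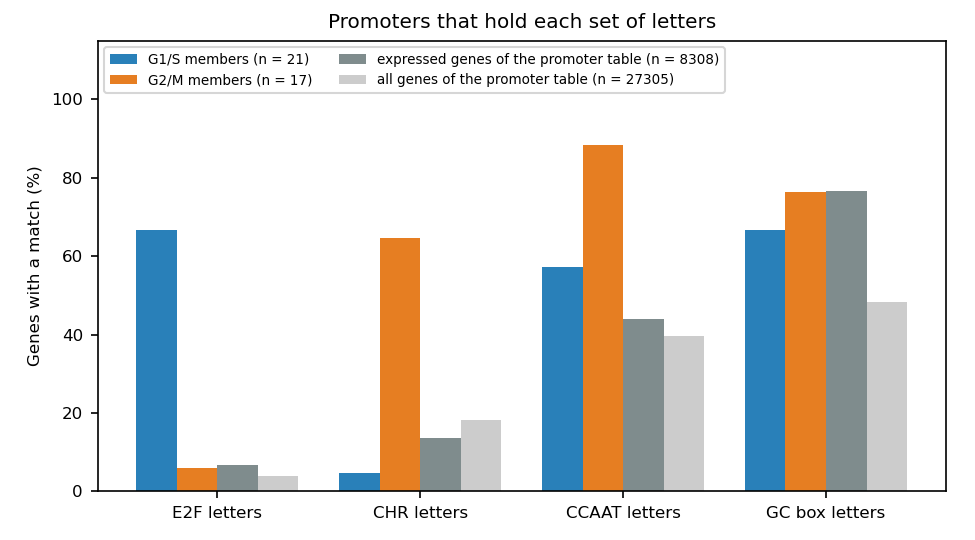
Bars give the percent of genes (y axis) whose RefSeq promoter holds each set of letters (x axis), for the G1/S and G2/M genes, for genes with an FPKM of at least 1 and for all genes of the promoter table. The E2F bar stands at 66.7% for G1/S and 5.88% for G2/M genes, and the CHR bar at 4.76% and 64.7%.

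All 46 genes were expressed, that is, had an FPKM of at least 1, against 51.4% of the 22118 rows with a symbol. Their median FPKM was 37.5 (quartiles 17.5 and 58.5), which is 3.14 times the median of 11.9 over the 11359 expressed rows. The range was 2.89 to 345.9, 37 genes lay between 10 and 100, and 41 were above the median of expressed rows. The runs were close: the second run over the first was between 0.893 and 1.12 with a median of 0.99, and 0 of the 46 genes differed by more than 1.5 times, against 1.26% of the 11324 expressed rows for which this ratio could be formed. The G1/S genes, with a median of 37.5, and the G2/M genes, with a median of 33.2, overlapped widely, the first spanning 2.89 to 345.9 and the second 9.14 to 131. The 34 proteasome subunit genes, another set that dividing cells use, had a median FPKM of 76.5.

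Not every row is a gene of its own. In 6 rows the listed gene stands with another symbol, so the FPKM is of the merged row: PRIM1 with NACA, PLK1 with DCTN5, E2F1 with NECAB3, CCNA2 with BBS7, CENPE with BDH2 and BUB1B with PAK6. A total of 17 genes have the coordinates of a locus that other rows also have, so that 18 of the 46 share a row or coordinates and 28 have their own. At a shared locus the ends need not be the ends of the gene, which bears on the marks below.

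**Figure D2:**
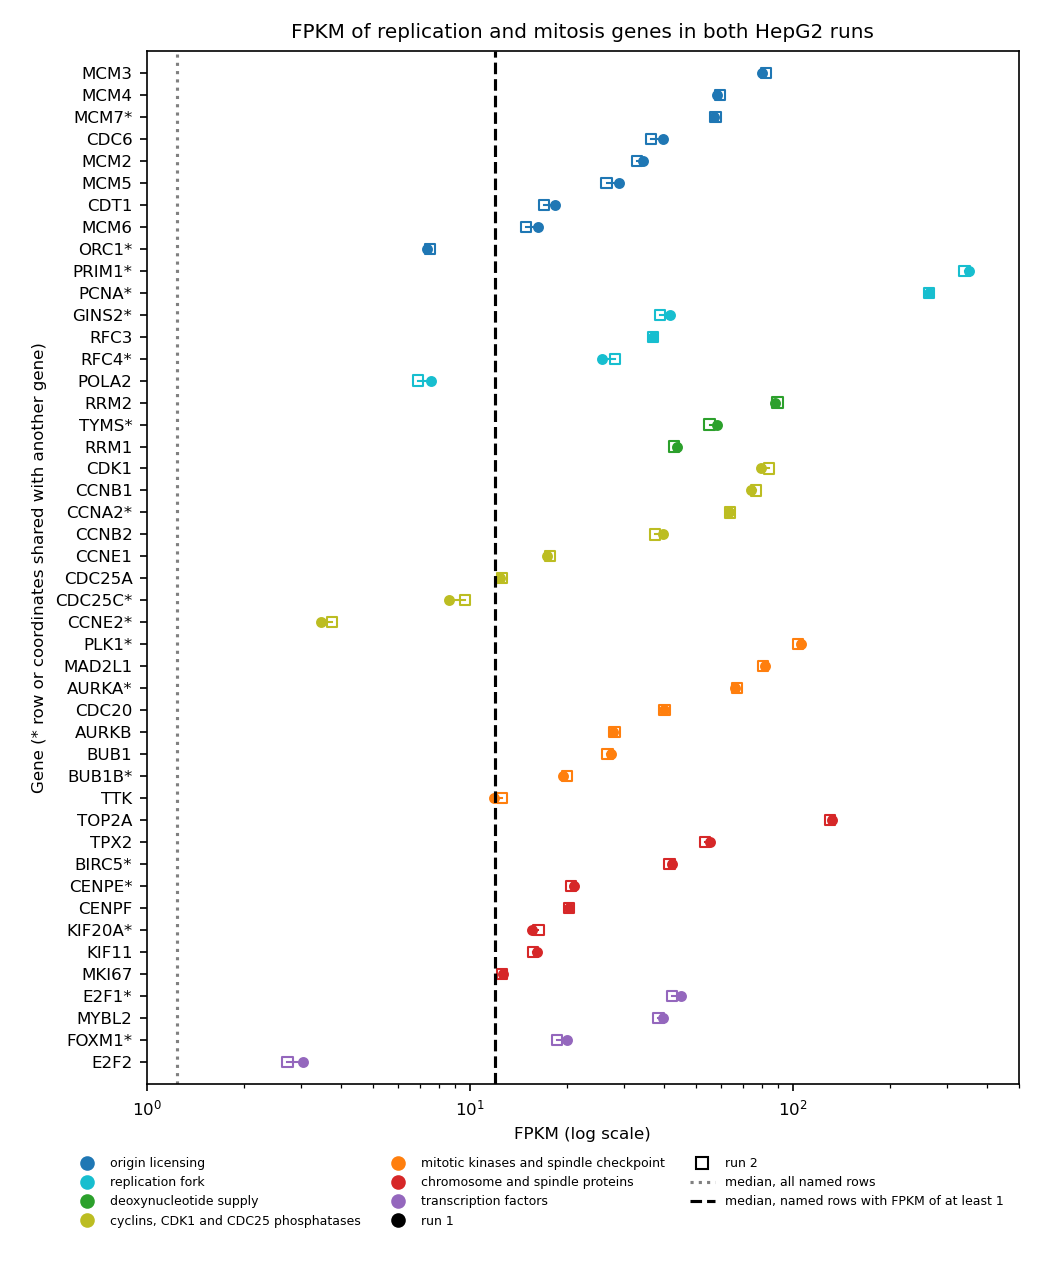
FPKM of each gene on a log axis (x), grouped by role (colours), with filled circles for run 1 and open squares for run 2; a star marks genes that share their row or coordinates. All but 5 genes lie to the right of the dashed line, the median of 11.9 over expressed rows.

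Of the origin licensing genes, MCM3 was the highest at 80.1 and 82.8 FPKM in the first and second run, and ORC1, the large subunit of the origin recognition complex, the lowest at 7.38 and 7.53. The subunits MCM2 to MCM7 form a hexamer in equal copies, but their FPKM spanned a 5.22-fold range. After MCM3 came MCM4 at 58.1 and 59.6, MCM7 at 57.1 and 57.6, MCM2 at 34.4 and 33.0, MCM5 at 28.9 and 26.5 and MCM6 at 16.2 and 15.0. The order was the same in both runs, and MCM4 and MCM7 were the closest neighbours, at a ratio of 1.02 in the first run and 1.03 in the second. The licensing factors CDC6 (39.5 and 36.5 FPKM) and CDT1 (18.3 and 16.9) lay inside the range of the helicase subunits. MCM7 and ORC1 are at shared loci.

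At the replication fork, the row of PRIM1, the catalytic primase subunit, with NACA gave 351 and 340.2 FPKM, the highest of the 46. NACA encodes a subunit of the nascent polypeptide-associated complex, and the part of PRIM1 in this value cannot be told apart. PCNA, the sliding clamp of the polymerases, was at 264 in both runs, 36.4 times the level of POLA2, which encodes the B subunit of polymerase alpha and gave 7.58 and 6.90. PCNA overlaps an antisense row, and whether reads were assigned by strand is not given in the sources used here. Between these extremes lay GINS2, part of the replicative helicase complex, at 41.6 and 38.7 FPKM. The clamp loader subunits RFC3 and RFC4 were at 36.9 in both runs and at 25.7 and 28.2. GINS2 and RFC4 are at shared loci.

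The genes for deoxynucleotide supply were all above 40 FPKM. RRM2, the small subunit of ribonucleotide reductase, gave 87.9 and 89.7 FPKM, and RRM1, the large subunit, gave 43.9 and 42.8. The small subunit was thus 2.09 times the large subunit in the second run and 2.05 times on average. TYMS, the thymidylate synthase gene, at a locus shared with CLUL1, ENOSF1 and C18orf56, gave 58.4 and 55.2.

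Among the cyclins, CDK1 and the CDC25 phosphatases, the mitotic cyclins lay above the G1/S cyclins. CDK1, the kinase of mitosis, was the highest at 79.8 and 84.5 FPKM, and its partner CCNB1 was close to it at 74.0 and 76.9. CCNA2, in a row with BBS7, gave 63.7 and 63.9, and CCNB2 gave 39.6 and 37.5. Of the G1/S cyclins, CCNE1 gave 17.4 and 17.7 FPKM and CCNE2, at a shared locus, 3.45 and 3.73, the lowest of this group, so that CCNE1 was 4.88 times CCNE2. CDC25A, which acts at entry into S phase, gave 12.4 and 12.6, and CDC25C, which activates CDK1 at entry into mitosis and shares its locus with FAM53C, gave 8.64 and 9.64.

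Of the mitotic kinases and spindle checkpoint genes, the row of PLK1, the Polo-like kinase of mitosis, with the dynactin gene DCTN5 gave 106 and 104 FPKM. MAD2L1, which encodes the checkpoint protein MAD2, was the highest with a row of its own, at 82.3 and 81.0. Aurora kinase A (AURKA, at a locus shared with CSTF1) gave 66.4 and 67.2 and Aurora kinase B (AURKB) 27.8 and 28, a ratio of 2.39. The target of the checkpoint, CDC20, gave 39.9 and 40.1 FPKM. The checkpoint kinase gene BUB1 gave 27.4 and 26.7, and BUB1B with PAK6 gave 19.5 and 19.9. The lowest was TTK, the kinase that starts the checkpoint signal, at 11.9 and 12.6.

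Of the chromosome and spindle proteins, TOP2A was the highest at 132 and 130.2 FPKM. MKI67, which encodes the proliferation antigen Ki-67, was the lowest at 12.7 and 12.6, and TOP2A was 10.4 times MKI67. TPX2, which targets Aurora A to the spindle, gave 55.2 and 53.5, and BIRC5, the survivin gene, at a locus shared with EPR1, gave 42.3 and 41.5. The kinetochore genes were close to each other, with CENPE (in a row with BDH2) at 21.0 and 20.6 and CENPF at 20.2 and 20.3. The kinesin genes KIF20A (at a locus shared with BRD8 and CDC23) and KIF11 were lower still, at 15.6 and 16.3 and at 16.1 and 15.6 FPKM. The order of the kinesins turned between the runs, so their levels did not differ beyond that spread.

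Of the transcription factors, the row of E2F1 with NECAB3 was the highest at 45.1 and 42.3 FPKM, and E2F2 was the lowest of all 46 genes at 3.05 and 2.72. MYBL2, the B-MYB subunit of the MYB-MuvB complex, gave 39.7 and 38.4, which is 2.02 times FOXM1, a factor of the same G2/M promoters, at 19.9 and 18.7. FOXM1 has a locus shared with C12orf32.

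The marks were read at single nucleosome positions within 2 kb of the ends of each locus. For the marks, the start of a gene is the end of its locus given by the strand. It is not an annotated transcription start, and the distance between them was not measured. A position that carries all of the active marks and neither of the repressive marks is called T, for trivalent. H3K4me3 was present at 42 of 46 genes (91.3%, interval 79.2 to 97.6%), H3K9ac at 43 and H3K27ac at 42. At least 1 T position was present at 41 (89.1%, 76.4 to 96.4%) and at least 3 at 28 (60.9%, 45.4 to 74.9%). These counts take both ends of a locus. At PCNA, ORC1, CCNE2, KIF20A and TYMS, all at shared loci, T lay only at the end opposite the start. T at these genes may therefore belong to another gene of the locus. The background was lower over all rows with a symbol and close to these values over expressed rows: H3K4me3 was found at 58.7% of all and 84.8% of expressed rows, T at 48.1% and 77.4%, and 3 or more T at 32.8% and 54.4%. Against rows of similar level, at an FPKM of 10 to 100, the shares were 86.4%, 82.0% and 60.4% and each lay inside the interval of the replication and mitosis genes. H3K9ac was found at 56.2% of all rows, 84.0% of expressed rows and 86.0% of rows at 10 to 100 FPKM, and H3K27ac at 51.4%, 81.0% and 84.8%. T made up 49.8% of the 293 marked positions at the ends of the 46 genes. The share was 45.2% over all rows, 49.7% over expressed rows and 52.6% over rows at 10 to 100 FPKM.

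The 28 genes with their own row all had H3K4me3, H3K9ac and H3K27ac, 27 of them had T (96.4%, 81.7 to 99.9%) and 20 had 3 or more T (71.4%, 51.3 to 86.8%). For expressed rows with their own coordinates the shares were 92.9% for H3K4me3, 85.5% for T and 58.0% for 3 or more T, and at an FPKM of 10 to 100 they were 95.2%, 92.0% and 66.6%. In the same 2 backgrounds H3K9ac was at 92.1% and 95.1%, and H3K27ac at 88.2% and 93.7%. The mean number of T was 3.57 ± 1.67 (SD over 28 genes), with 0.786 ± 0.995 before and 2.71 ± 1.56 after the start. Own-coordinate rows at 10 to 100 FPKM had means of 0.784 and 2.66. The difference was not tested.

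**Figure D3:**
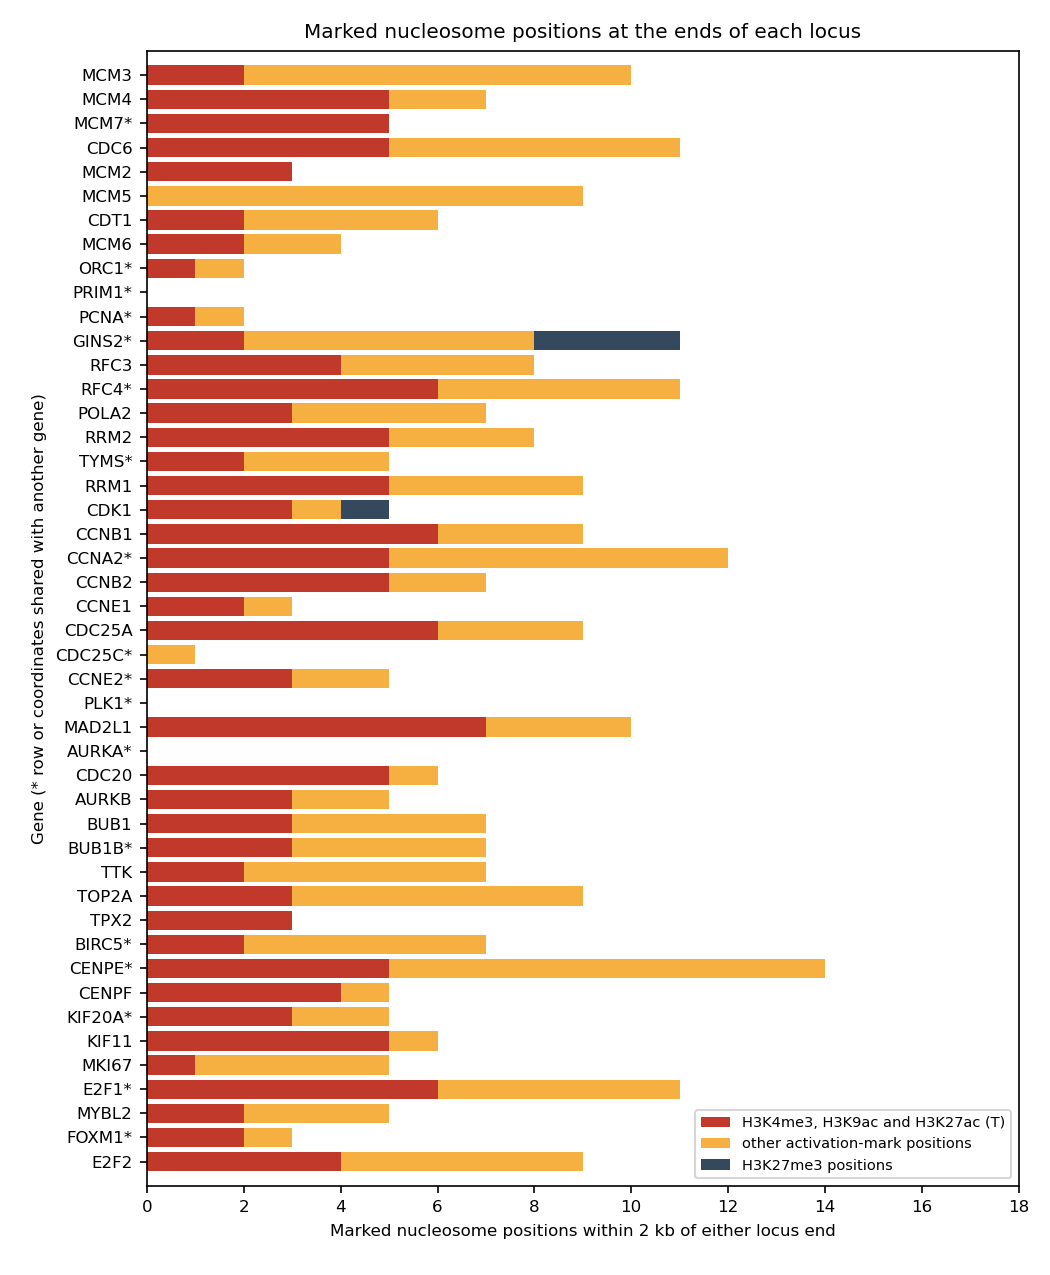
Bars give, for each gene, the number of marked nucleosome positions within 2 kb of either end of its locus (x axis), split into T positions, other positions with activation marks and positions with H3K27me3; a star marks a shared row or locus. MAD2L1 has the most T, at 7, and PRIM1, PLK1 and AURKA have no marked position at the ends of their shared loci.

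The most T positions were at MAD2L1 with 7, followed by CCNB1, CDC25A, RFC4 and the row of E2F1 with NECAB3 with 6 each. These genes lie far apart in level, from 12.5 FPKM at CDC25A to 81.6 at MAD2L1. RFC4 and E2F1 are at shared loci, where positions at both ends were counted. A total of 5 genes had no T: MCM5, with a row of its own, and PRIM1, PLK1, AURKA and CDC25C, at shared loci. Within the whole shared locus the latter had 10, 14, 5 and 5 T positions in that order. Over the whole locus and 2 kb beyond, H3K4me3 was present at all 46 genes and T at 45, all but MCM5, against 98.0% and 93.6% of expressed rows and 70.1% and 59.5% of all rows.

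H3K27me3 was present at the ends of 2 of 46 genes (4.35%), against 9.82% of all rows, 2.74% of expressed rows and 1.76% of rows at 10 to 100 FPKM. H3K9me3 was present at those of 0 of 46, against 3.90%, 2.59% and 2.47%. A count of 0 allows a share of up to 6.52% (3 genes of 46), or 7.71% by the exact interval. The share with either, 4.35% (0.531 to 14.8%), compares with 5.17% of expressed rows, 12.9% of all rows and 4.12% of rows at 10 to 100 FPKM. Of the 28 genes with their own row 1 had such a mark, against 4.91% of own-coordinate expressed rows and 3.59% of those at 10 to 100 FPKM. At CDK1, which had 3 T positions near its start, a single H3K27me3 position lay near the other end of the locus. At GINS2, 3 H3K27me3 positions lay at the ends of a shared locus of 520 kb. Within 5 kb of an end the share was 13.0%. No background share is given for that window, so this value cannot be set against those at 2 kb. The share within whole loci was 26.1%, against 30.0% of expressed and 37.4% of all rows.

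The strings of marked nucleosomes around the start could be read in the 28 genes with their own row. CCNB1 is the plainest case, on hg19 at chr5:68462693-68477453. It had no marked position before the start and then 6 T positions in a row, centred from 373 to 1108 bp after the start, followed by H3K4me3/H3K9ac at 1220 bp and H3K4me3 alone at 1388 bp. Neighbouring calls in this string overlap, since each is 140 bp long and the closest centres are 103 bp apart. MAD2L1 (chr4:120980578-120988013) had T at 1050, 480 and 278 bp before the start and at 157, 307, 474 and 582 bp after it, and the string again ended in H3K4me3/H3K9ac at 690 bp and H3K4me3 alone at 847 bp. A further position with H3K4me3 alone lay 793 bp before the start. TOP2A (chr17:38544772-38574202) had 3 T at 306, 511 and 686 bp, then H3K4me3/H3K9ac at 886 bp and H3K4me3 alone at 1016 bp. Before the start TOP2A had H3K27ac alone at 1594, 1441 and 1264 bp and H3K4me3/H3K27ac at 374 bp. The printed promoters of TOP2A, CCNB2 and the other genes are on another build, so distances between their letters and the marked positions were not measured.

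This order from T to fewer marks recurred, but not more often than in the background. Of 27 genes with at least 2 downstream H3K4me3 positions, 16 had T first and another combination last (59.3%). The share was 60.8% in own-coordinate expressed rows and 64.6% in those at 10 to 100 FPKM. After the start, the median distance was 504 bp for 76 T positions, 683 bp for 22 H3K4me3/H3K9ac positions and 1016 bp for 23 positions with H3K4me3 alone. Over own-coordinate expressed rows the medians were 552, 807.5 and 958 bp, so the order was the same there. The H3K4me3 position nearest to the start on the downstream side was T at 24 of 28 genes (85.7%), against 78.0% of own-coordinate expressed rows and 84.1% of those at 10 to 100 FPKM. The last H3K4me3 position of the string was H3K4me3 alone at 15 of the 27 genes with at least 2 such positions (55.6%), against 46.4% and 46.6%. This last position was T at 8 of the 27 (29.6%), against 23.6% and 24.6%. By phase, the nearest position was T at 13 of 13 G2/M and 11 of 15 G1/S genes, and 11 of 13 and 9 of 15 had 3 or more T. T was 59.5% of the 84 marked positions at the ends of these G2/M genes and 46.3% of the 108 of these G1/S genes. It was 50.1% in own-coordinate expressed rows and 53.8% in those at 10 to 100 FPKM, between the values of the waves. Over all 22 G2/M and 24 G1/S genes, with shared loci, it was 52.6% and 47.5%. There the mean number of T was 3.18 and 3.17, and 68.2% and 54.2% had 3 or more T. At least 1 T was present at 86.4% of the G2/M and 91.7% of the G1/S genes, the opposite order. These are counts over few genes in 1 library per mark, and the difference was not tested.

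**Figure D4:**
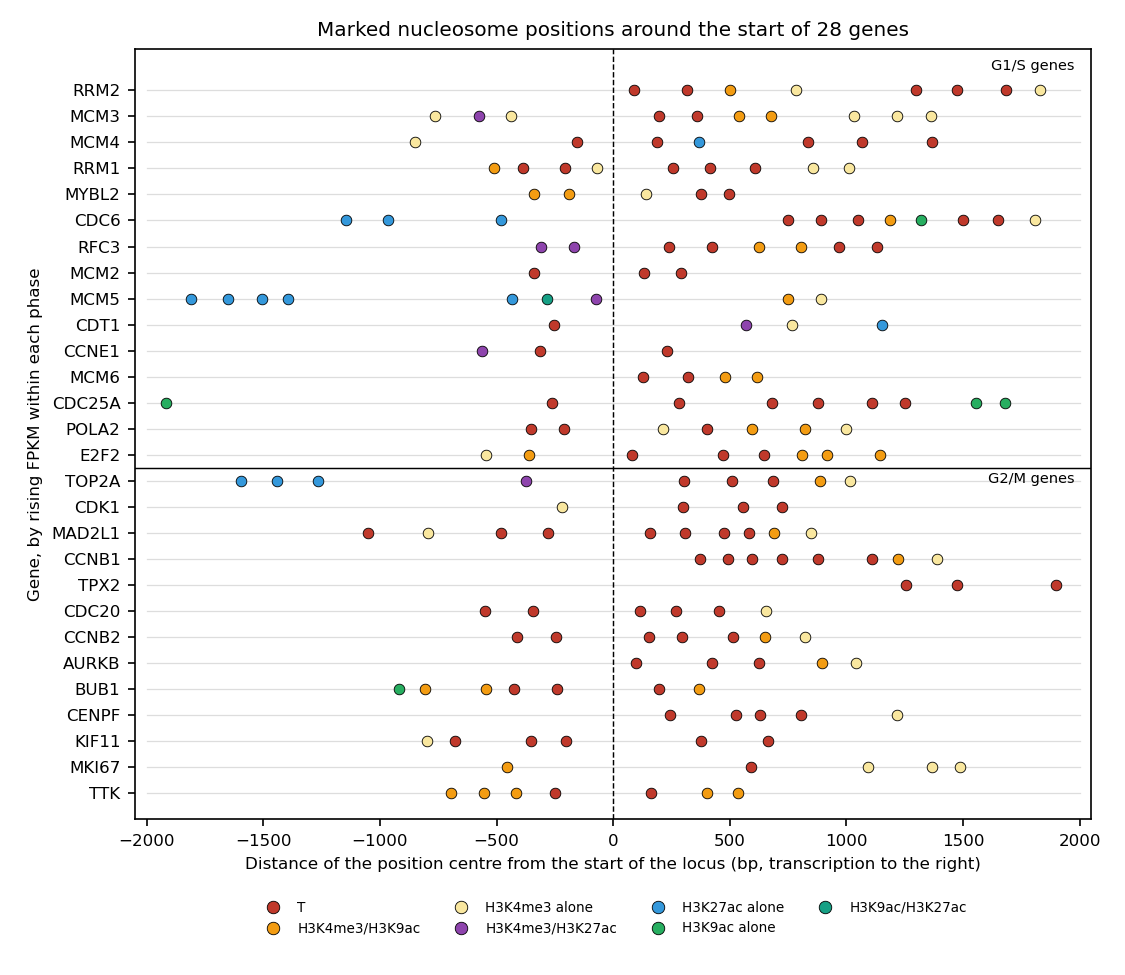
Each row is a gene with its own row in the expression table, ordered by FPKM within G1/S and G2/M genes, and each dot is a marked nucleosome position at its distance in bp from the start (x axis), coloured by combination of marks. T dots gather within 1000 bp after the start, with H3K4me3 alone mostly farther out, and MCM5 has no T dot.

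At 4 genes the nearest downstream H3K4me3 position was not T: MCM5, CDT1, POLA2 and MYBL2. At POLA2 and MYBL2 a position with H3K4me3 alone, at 212 and 142 bp, came before the nearest downstream T at 402 and 377 bp. At CDT1 the downstream positions were H3K4me3/H3K27ac at 571 bp, H3K4me3 alone at 766 bp and H3K27ac alone at 1151 bp, and its T lay 254 bp before the start. MCM5 (chr22:35795863-35821422), at 27.7 FPKM on average, had 4 positions with H3K27ac alone between 1812 and 1392 bp before the start, H3K27ac, H3K9ac/H3K27ac and H3K4me3/H3K27ac at 432, 282 and 72 bp before it, and H3K4me3/H3K9ac at 750 bp and H3K4me3 alone at 890 bp after it. All of the activation marks were there, but never all on a single position. The other strings differed in length and in distance from the start of the locus, which need not be the transcription start. MCM3 (chr6:52128811-52149582), the highest helicase subunit, had H3K4me3 at 10 positions but T at 2 of these, at 196 and 361 bp after the start. CDC6 (chr17:38443546-38460978) had H3K27ac alone at 3 positions before the start and its nearest T at 750 bp. TPX2 (chr20:30325321-30389667) had 3 T as its only marked positions within 2 kb of an end, of which the nearest lay 1255 bp after the start. MKI67 (chr10:129894800-129924704) had 1 T, at 593 bp, followed by 3 positions with H3K4me3 alone. E2F2 (chr1:23832876-23857726), the lowest of the 46, had 3 T after the start, the nearest at 80 bp, the same number as TOP2A, the highest gene with its own row.

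The longest run of T, with no other called position between them, had a median of 3 positions and reached 6 at CCNB1, CDC25A and MAD2L1. A run was counted whatever the distance between its positions. Those of CDC25A and MAD2L1 cross the start, where neighbouring T centres lay 545 and 435 bp apart. A run of 4 or more was present at 7 of 28 genes (25.0%), against 30.7% of own-coordinate expressed rows and 37.1% at 10 to 100 FPKM. Averaged over the 28 genes, T was densest from 250 to 500 bp after the start, at 0.821 positions per gene, against 0.581 in expressed and 0.657 in own-coordinate rows at 10 to 100 FPKM. From 750 to 1000 bp it was 0.250, against 0.323 and 0.385. Nucleosome positions as such were fewest in the 250 bp before the start, at 0.750 per gene.

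**Figure D5:**
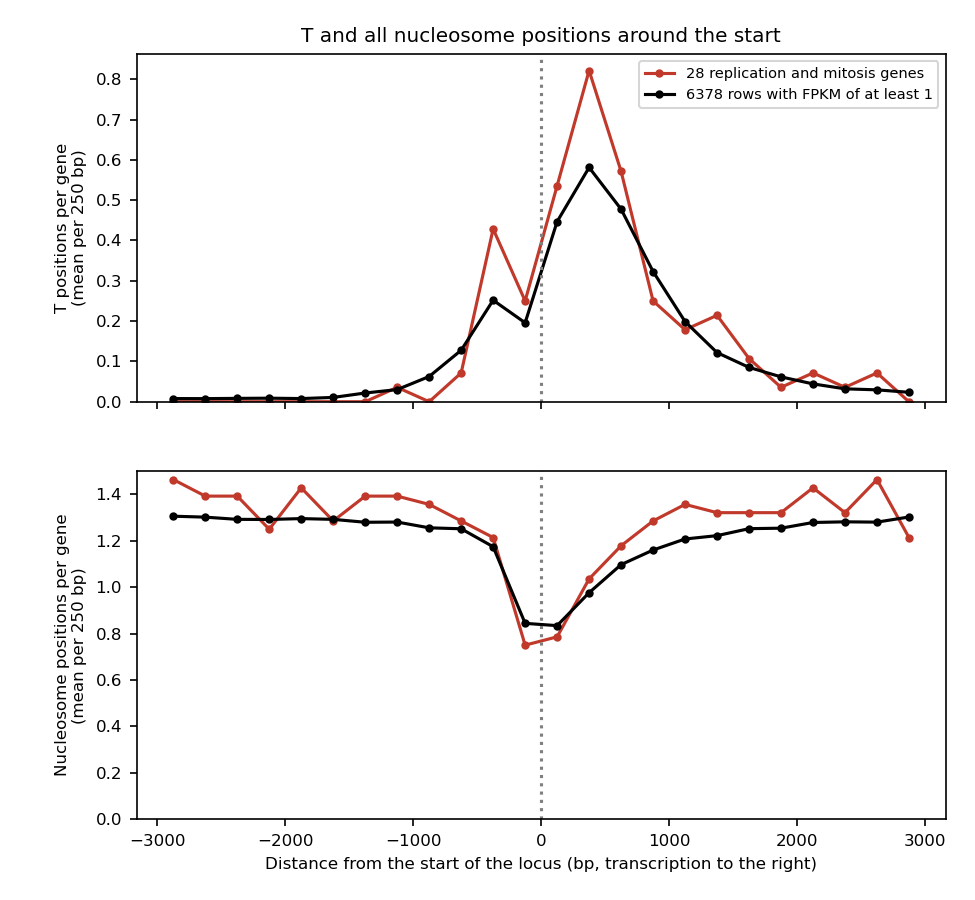
Mean number of T positions (upper panel) and of all nucleosome positions (lower panel) per gene in bins of 250 bp, by distance from the start (x axis, bp), for the 28 replication and mitosis genes (red) and 6378 expressed rows with their own coordinates (black). T peaks at 0.821 per gene from 250 to 500 bp after the start, and nucleosome positions dip around the start in both groups.

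Around the marked ends, called nucleosomes left a gap. It was taken as the largest distance between neighbouring centres within 500 bp of the end with more H3K4me3. At some shared loci this is the end opposite the start. The median was 423 bp over the 41 genes where such an end could be told (quartiles 350 and 517 bp), against 435 bp in expressed rows. Over the 28 genes with their own row it was 447.5 bp, against 443 bp in own-coordinate expressed rows. The gap was shortest at MCM7 with 228 bp and longest at MKI67 with 1050 bp, from the position at 457 bp before the start to the T at 593 bp after it. At the start given by the strand the median was 408 bp over all 46 genes, against 404 bp in expressed rows. Neighbours on the other strand were searched within 1 kb before the start, among rows with a symbol and their own coordinates. Neighbours at shared loci were not searched. Within these limits MCM4 was the single gene with its own row that had such a neighbour. It started 44 bp from the start of PRKDC, which encodes the catalytic subunit of DNA-dependent protein kinase. The T positions nearest to the start of MCM4 lay 157 bp before it, past the start of PRKDC, and 189 bp after it. The gap of 694 bp lay farther before the start of MCM4, also past the start of PRKDC.

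Spearman's rho of FPKM with T was 0.0695 over the 46 genes, where Pearson's r of log2(FPKM + 0.01) was -0.00621, and 0.314 over the 28 genes with their own row, against 0.303 over 6378 own-coordinate expressed rows and 0.119 over the 3173 at 10 to 100 FPKM. With T after the start alone it was 0.199 over the 46 genes and 0.479 over the 28, against 0.311 and 0.111. These are correlations across genes of the same libraries, which are not independent replicates, and no p-value is given.

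The other genes of the pathways were 74, in lists for replication, for mitosis and for the E2F, RB and DREAM proteins. All 74 were expressed, with a median FPKM of 15.8, and the median of the 46 genes was 2.37 times that. H3K4me3 and T were each present near an end of 63 of the 74, T within the locus of 73, and a repressive mark near an end of 3. The highest were GMNN, which encodes geminin, the inhibitor of CDT1, at 84.5 and 87.2 FPKM, the checkpoint gene BUB3 at 82.0 and 83.4 and the ubiquitin-conjugating enzyme UBE2C at 81.5 and 79.4. CDC7, the kinase that fires licensed origins, was the gene with no T in its locus, at 5.90 and 6.20 FPKM. Of 2 rows of GINS4, 1 was below an FPKM of 1 on average, at 1.03 and 0, and the other at 7.79 and 6.71. The 15 E2F, RB and DREAM genes were the lowest list, with a median of 10.7, but each of them had H3K4me3 and T near an end.

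The cells had the markers of liver cells: 10 of 10 hepatic markers were expressed, with a summed FPKM of 19971 and 20356 in the runs. Of endothelial markers 0 of 5, of fibroblast markers 1 of 5 and of leukocyte markers 2 of 5 were expressed, the latter LYZ, at 1148 and 1198 FPKM, and CD14, at 2.91 and 2.16, while PTPRC and CD3E were listed at 0. The map held 14217405 nucleosome positions, of which 203848 carried a mark and 42763 were T.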

How the data were processed

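The samples were 1 library each of MNase-Seq, ChIP-Seq for 5 histone marks and RNA-Seq of HepG2 cells. The authors called nucleosome positions with DANPOS and marked positions with NUCLIZE, and deposited both as coordinates on hg19 with no counts or heights, so the reads behind a position cannot be given and peaks could not be filtered more strictly. The submitters' processing notes name BWA, Bowtie, TopHat2 2.1.0, HOMER 4.7 and edgeR, with no role. The authors deposited FPKM in 2 columns in the layout of Cuffdiff, beside the p-value, q-value and fold change of their own comparison of the columns, which were not used. The mean of the columns was used, taken as runs of 1 sample, since the labels give no separate cultures.

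Rows were matched by symbol, and 0 columns of per-sample values were left unused. A peak was assigned to the position it overlaps most (each reaches 3 bp beyond it), and a position was counted within 2 kb of either end of the locus by its centre. The strand was inferred from the order of locus numbering. It was the same as in RefSeq for 38 of 38 genes with an entry, and 28 of 28 genes with their own row had more H3K4me3 at the start end. Promoters of 300 bases from RefSeq (GRCh38.p14) were searched for letters, counting a gene once over all its promoters, and no coordinates were converted between builds. The printed genes were chosen by number of matches among genes with a single promoter not on chromosome 8.

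Values per run are given for the highest and lowest gene of each role, the 5 genes with the most and all with 0 T, all with H3K27me3 or H3K9me3 and all that share a row or locus; other genes were named as well. The genes and lists were chosen with earlier results of these data known. Intervals are Clopper-Pearson. Scripts ran under Python 3.11.15 with pandas 2.3.3, numpy 2.4.6, matplotlib 3.10.9 and scipy 1.17.1, and were tested on simulated data. Alternatives were other windows (1 and 5 kb), any overlap, each column alone, other FPKM limits (0.1 and 5), rows with a single symbol or own coordinates, other measures of correlation and the whole locus.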

Additional observations from a re-analysis of the deposited data

How the results depend on the processing

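Of 38 alternatives over 13 results, 28 were counted as within the interval of the main value and the other 10 are given here. Intervals are printed for shares only, not for medians or correlations. The 28 include Spearman's rho of 0.314 over genes with their own row, beside 0.0695 over all 46. The correlation of FPKM with T over the 46 genes, 0.0695 by Spearman's rho, was -0.00621 as Pearson's r of log2 FPKM with a pseudocount of 0.01 and -0.0102 with a pseudocount of 1, so its sign is not settled. H3K4me3 rose from 91.3% to 100% of genes in rows whose coordinates no other row has, and likewise over the whole locus and 2 kb beyond. T rose from 89.1% to 96.6% in rows with their own coordinates, 97.8% over the whole locus and 97.6% at the end with more H3K4me3 alone. The share with H3K27me3 or H3K9me3, 4.35%, was 0% within 1 kb and 26.1% over the whole locus, and the median number of T, 3, was 5 there. Within 5 kb this share was 13.0%, which is inside the interval of the main value and so among the 28. The whole-locus values and the correlation over genes with their own row were chosen after seeing the data. No paired analysis was possible because each assay has 1 library, and leaving out a replicate was not possible for the same reason. The lists hold no read counts per position, so a gene without a mark is a gene without a call.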
